A study of Mus musculus with 12 samples.

Results

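The 10 genes described here encode transcription factors of naive pluripotency, the ground state of mouse embryonic stem (ES) cells, and were followed through differentiation of WT and Terc-/- (KO) ES cells on expression arrays. The members were Klf2, Klf4, Klf5, Esrrb, Nr5a2, Nr0b1, Zfp42, Prdm14, Tfcp2l1 and Tbx3. Every probe set whose annotation names 1 of these symbols and no other was taken, which gave 24 of the 45037 probe sets tested, and each gene was read from its brightest probe set, the one with the highest mean log2 intensity over the 12 arrays, unless stated otherwise. All 10 genes were measured on all 12 arrays, so no member was lost to a filter on low values.

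Terc encodes the RNA template of telomerase, and the study asked how its loss, with the short telomeres of late-generation mice, affects the way ES cells differentiate. All cells had a C57BL/6 background. Undifferentiated cells (D0) were WT lines N12 and N33 at passage 12 and KO lines F35 and A49 at passage 11, described in the labels as G3/4 Terc KO, and grew on mitomycin-treated mouse embryonic fibroblast feeders with serum and LIF. Cells differentiated for 8 days (D8) and 15 days (D15) had passed through embryoid bodies, formed without LIF in hanging drops for 4 days and then plated, with 2 biological replicates for each genotype and day. The labels do not name the lines behind the D8 and D15 samples, so whether a genotype is represented by 1 line or 2 at those times is open. Passage and genotype cannot be told apart at day 0, and no probe set names Terc alone, so the genotypes rest on the labels.

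Naive ES cells hold a network of transcription factors around Pou5f1, Sox2 and Nanog. LIF, acting through Stat3, induces Klf4 and Tfcp2l1, while Esrrb and Klf2 respond to inhibition of Gsk3 and Mek, and most members bind one another's regulatory regions. When LIF is withdrawn, Fgf and Erk signalling and the repressor Tcf7l1 take the network down, cells pass through a formative and then a primed epiblast state, and lineage genes follow. Several members are also used outside the pluripotent state, among them Klf4 and Klf5 in epithelia, Klf2 in endothelium, Nr5a2 in liver and pancreas, Nr0b1 in adrenal and gonad, and Tbx3 in limb and heart.

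The member genes lie on 7 chromosomes (GRCm38.p6), with Prdm14, Tfcp2l1 and Nr5a2 on chromosome 1 and Zfp42 and Klf2 on chromosome 8. RefSeq start-site windows matched 7 of the 10 symbols, with 9 windows in all. Klf5, Tbx3 and Prdm14 were not in the table. The 250 bases before the start site are shown for Zfp42 and Nr0b1, which were among those higher in KO at day 15, for Klf2, which differed at both later days, and for Klf4, which did not pass at either. Each sequence is written 5′ to 3′ on the strand of the gene, with capitals for motif matches on either strand.
Zfp42 (chr8:43307010-43307259, minus strand): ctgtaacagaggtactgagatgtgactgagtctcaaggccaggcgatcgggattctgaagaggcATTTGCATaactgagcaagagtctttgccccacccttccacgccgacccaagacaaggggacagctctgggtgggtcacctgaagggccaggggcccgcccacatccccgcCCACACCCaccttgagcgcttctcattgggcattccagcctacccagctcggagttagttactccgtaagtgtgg
Nr0b1 (chrX:86191525-86191774, plus strand): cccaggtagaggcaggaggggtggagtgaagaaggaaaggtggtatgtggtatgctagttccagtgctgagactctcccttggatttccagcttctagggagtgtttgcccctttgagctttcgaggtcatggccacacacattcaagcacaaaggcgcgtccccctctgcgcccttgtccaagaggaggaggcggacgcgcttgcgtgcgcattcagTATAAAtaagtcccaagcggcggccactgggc
Klf2 (chr8:72318812-72319061, plus strand): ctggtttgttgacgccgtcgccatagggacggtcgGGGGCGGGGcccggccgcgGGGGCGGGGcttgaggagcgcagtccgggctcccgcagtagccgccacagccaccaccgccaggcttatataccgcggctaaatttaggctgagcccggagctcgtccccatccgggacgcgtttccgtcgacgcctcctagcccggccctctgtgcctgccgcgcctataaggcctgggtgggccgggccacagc
Klf4 (chr4:55532476-55532725, minus strand): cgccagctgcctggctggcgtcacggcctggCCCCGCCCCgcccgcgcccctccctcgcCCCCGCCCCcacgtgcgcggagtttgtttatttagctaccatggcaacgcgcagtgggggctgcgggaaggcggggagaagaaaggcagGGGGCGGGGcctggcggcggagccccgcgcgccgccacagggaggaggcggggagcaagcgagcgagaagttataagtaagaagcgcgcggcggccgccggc

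In these windows 8 short motifs were searched. The octamer ATGCAAAT, the letters recognised by Pou5f1, stood once in the Zfp42 window, from base -186 to base -179 before the start, and in 1.6% of all 32851 windows. A KLF box, GGGTGTGG, stood once in the same window from base -75 to base -68, and in 3.2% of all windows. The GC box GGGGCGGGG occurred 2 times in the Klf2 window and 3 times in the Klf4 window, against a share of 10.4% of all windows with at least 1 match. TATAAA was found in the Nr0b1 window and in windows of Tfcp2l1 and Nr5a2, against 12.4% of all windows. The letters TCAAGGTCA (ESRRB element), TTCCNGGAA (STAT element), CTTTGAT (TCF7L1 element) and CATTGTN (SOX element) were in none of the 9 member windows, against 0.387%, 0.913%, 3.21% and 10.7% of all windows. A match describes letters in the window and was not tested as a site.

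The arrays were deposited on different scales. The median intensity of the 4 D0 arrays was 114 to 117, and that of the 8 later arrays was 50.6 to 53.1, so levels were tested within a day or between D8 and D15, and the comparison with D0 used the rank of a gene within its array. Replicate arrays correlated at r = 0.987 or higher over all probe sets. Pou5f1, Sox2 and Nanog, the defining markers of ES cells, stood at or above the 98.0th percentile in both genotypes at D0. At D15 the mean percentile of Pou5f1 was 72.4 in WT and 97.0 in KO, so cells labelled differentiated still carried pluripotency transcripts in KO. In whole cultures, fewer cells with a transcript and less transcript per cell cannot be told apart.

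**Figure D1:**
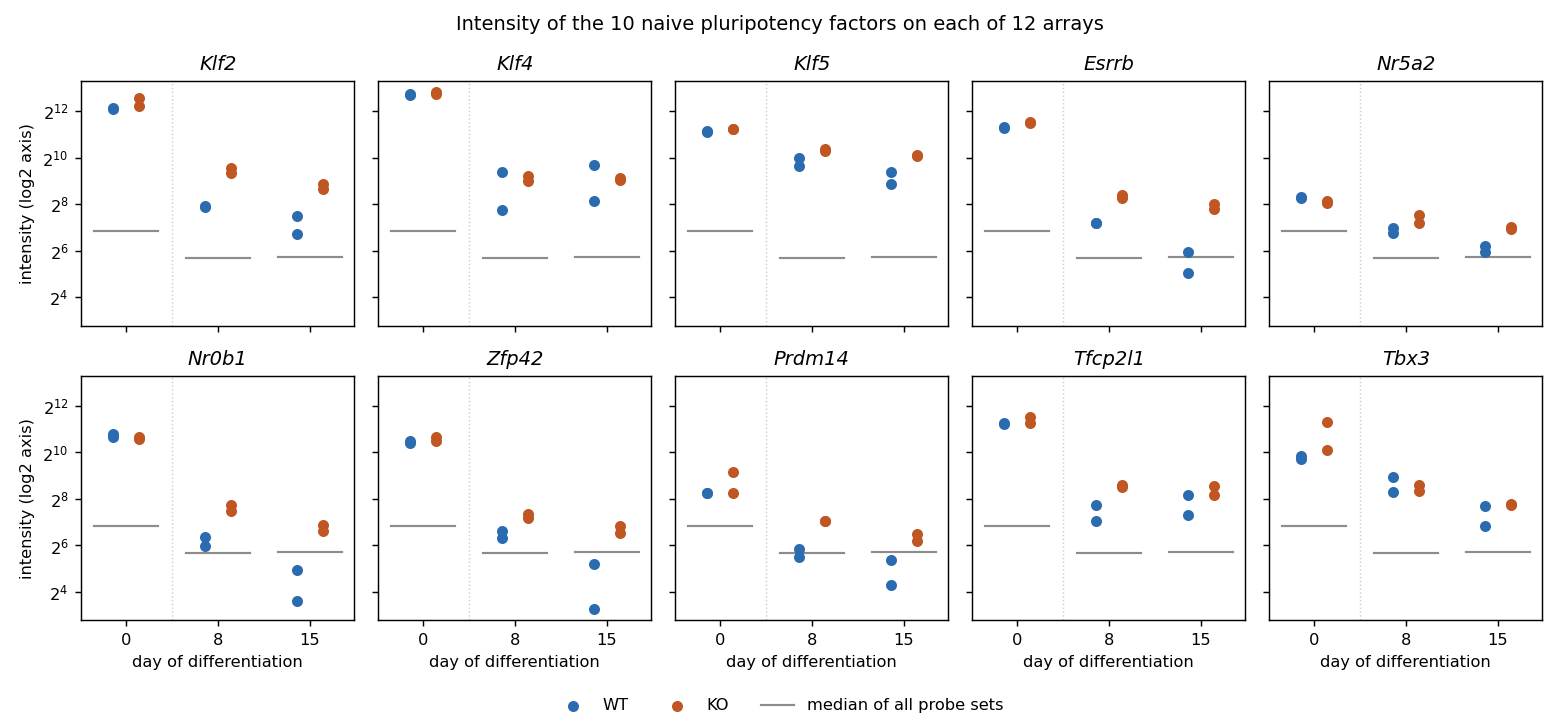
Deposited intensity (log2 axis) of the brightest probe set of each of the 10 factors on each of the 12 arrays, against day of differentiation; blue points are WT arrays, orange points KO arrays, and grey bars the median of all probe sets that day. Esrrb, Zfp42, Nr0b1 and Prdm14 fall under the median bar on at least 1 WT array of day 15, while every KO array stays above it.

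In undifferentiated cells no naive factor passed the test between the genotypes. Of the 10, 0 passed at D0, higher (0.022% of all 18193 genes) or lower (0.011%), with limma, and at an unadjusted p 1 was higher (Tbx3, 4.51% of all genes) and 0 were lower (2.68%). The median log2 difference of KO from WT was 0.16 over the members and 0.04 over all genes. Both KO arrays lay above both WT arrays for 6 members (31.2% of all genes) and below them for 2 (17.5%), the latter being Nr0b1 and Nr5a2. For Nr5a2 the direction turned on another probe set, the one with the highest intensity at D0, which read 738 and 661 in WT against 748 and 1034 in KO (log2 0.33, limma adjusted p = 0.74).

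For Tbx3 and Prdm14, 1 KO line stood well apart from the other 3 arrays. Tbx3, a T-box factor of the naive network, read 914 and 851 in WT, 1101 in KO line F35 and 2529 in KO line A49. Its log2 difference was 0.92 (SE 0.39, limma adjusted p = 0.555), and it was 0.32 without A49 and 1.52 without F35. Prdm14, a PR-domain factor that holds down Fgf receptor signalling and de novo DNA methylation, read 304 and 305 in WT, 306 in F35 and 569 in A49, with a log2 difference of 0.45 (SE 0.34, limma adjusted p = 0.787). Line A49 was the highest of the 4 D0 arrays for 6 members, against 37.9% of all genes. Among them were Klf2, at 6091 against 4357 to 4754 on the others, and Tfcp2l1, at 2987 against 2360 to 2464. The summed level of 16 fibroblast and feeder genes was highest in A49, at 17280, against 11952 in F35 and 7685 to 11019 in WT. None of the other 3 arrays reached the A49 sum, and Prdm14 read 304 to 306 on them. The part of these feeder genes in the result was not tested. Klf4, the LIF-induced reprogramming factor, read 6600 to 6864 in WT and 6798 to 7210 in KO at D0, and the groups overlapped.

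After LIF withdrawal the naive factors lost rank in both genotypes. In WT, all 10 had a lower percentile on both D8 arrays than on both D0 arrays (42.5% of all genes) and all 10 at D15 (44.5%). In KO, 9 had fallen at D8 (42.1%) and 10 at D15 (41.8%), with Nr5a2 the member whose D8 and D0 arrays overlapped. That exception holds for its brightest probe set by mean log2 and not for the one brightest at D0, whose percentiles went from 85.8 and 89.2 to 64.4 and 63.2 in KO. This comparison is across arrays of different scale and carries no test.

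The loss of rank differed among the members. Zfp42 (Rex1), a zinc finger gene used as a marker of the naive state, went from the 91.8th percentile at D0 to the 61.2nd at D8 and the 25.1st at D15 in WT, and from the 92.5th to the 71.3rd and the 64.1st in KO. Nr0b1 (Dax1), an orphan receptor without a classical DNA-binding domain that acts mostly as a repressor, went from 93.2 to 57.3 and 24.6 in WT and from 92.7 to 74.8 and 65.0 in KO. Esrrb, an orphan nuclear receptor downstream of Gsk3 and Tcf7l1, went from 95.6 to 69.7 and 46.0 in WT and from 96.2 to 82.2 and 77.9 in KO. These 3 lost the most rank of the 10 in WT, and Prdm14, from 73.2 to 34.5, came next. Ranks lie close together in intensity or far apart depending on the place on the array, so rank loss is not a fold. On log2 intensity after quantile normalization, Klf2 (-4.32), Klf4 (-3.20) and Tfcp2l1 (-2.70) changed more than Prdm14 (-2.45) from D0 to D15 in WT. The same 3 members still changed the most.
Klf5, a Krüppel-like factor of the early embryo that epithelia also use, moved least in rank in both genotypes on its brightest probe set. It stood at 94.9, 92.4 and 88.6 in WT and at 95.3, 95.0 and 94.1 in KO. Its other probe sets moved more. The next brightest went from 77.0 to 62.9 and 63.0 in WT and from 75.2 to 66.6 and 67.8 in KO. The dimmest rose from 4.21 to 12.2 and 13.4 in WT and from 5.67 to 15.9 and 12.5 in KO. Klf4 stood at 98.9, 82.7 and 86.2 in WT and at 99.0, 88.6 and 88.7 in KO, so its mean rank was no lower at D15 than at D8 in either genotype.

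**Figure D2:**
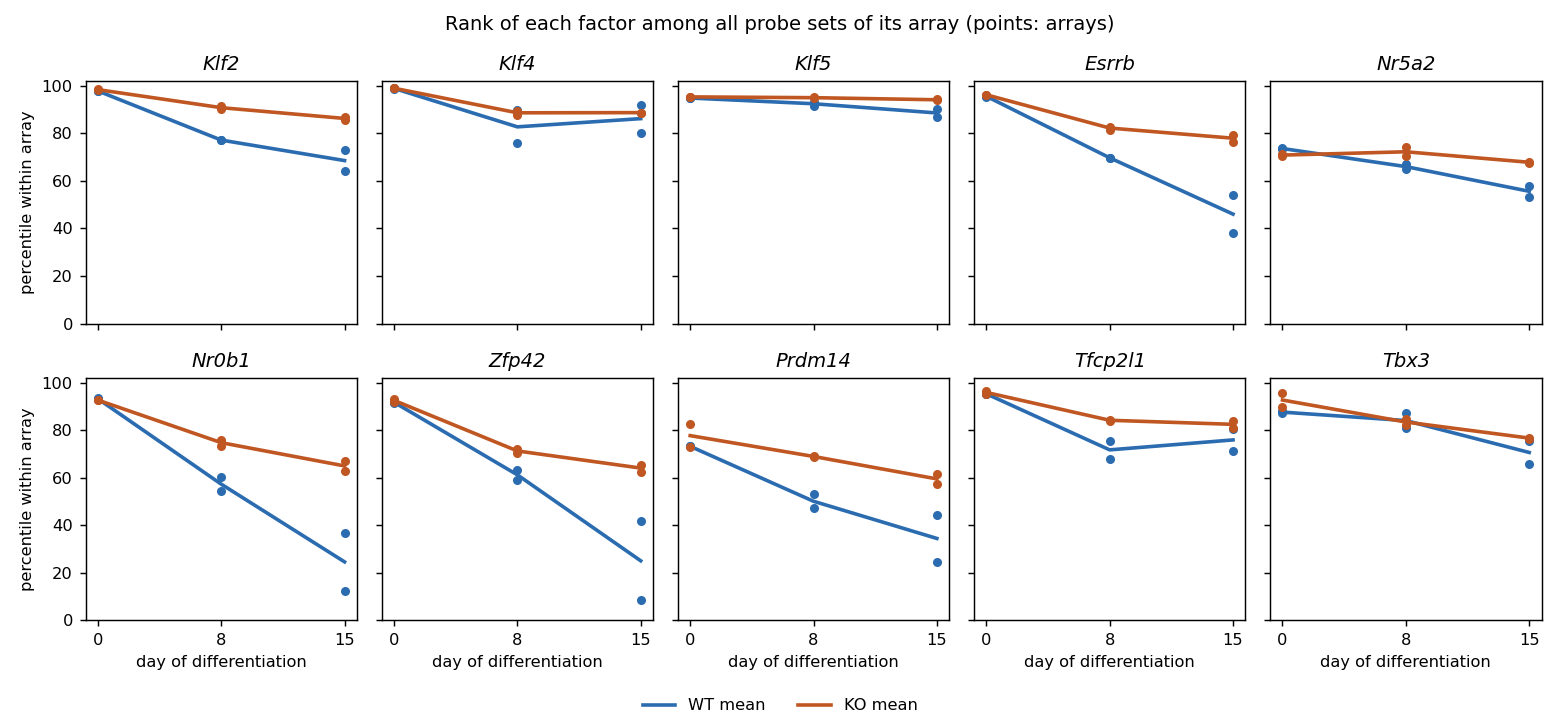
Percentile of each factor among all probe sets of its own array (0 is the dimmest) against day of differentiation; points are arrays and lines join the means of WT (blue) and KO (orange). Nr0b1 and Zfp42 reach mean percentiles of 24.6 and 25.1 in WT at day 15, against 65.0 and 64.1 in KO, while Klf4, Klf5 and Tbx3 stay closer together.

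At D8, Klf2 and Esrrb were higher in KO. These 2 of 10 members passed in that direction (0.77% of all genes) and 0 in the other (0.77%), 7 were higher at an unadjusted p (8.93%), and both KO arrays lay above both WT arrays for 8 (27.2%). The median log2 difference was 0.97 over the members and 0.03 over all genes. By D15, 7 members were higher in KO with limma (8.77% of all genes) and 0 lower (8.31%): Klf2, Klf5, Esrrb, Nr5a2, Nr0b1, Zfp42 and Prdm14. Both KO arrays of D15 lay above both WT arrays for 8 members (33.1%), and the median log2 difference was 1.23 against 0.04 over all genes. Tbx3 was the member above on both arrays without a call, and Klf4, Tfcp2l1 and Tbx3 did not pass at either day.

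Among the Krüppel-like factors, Klf2, which sustains the naive state under Mek inhibition, showed the largest difference. It read 237 and 242 in WT against 757 and 648 in KO at D8, and 104 and 178 in WT against 406 and 468 in KO at D15. The groups did not overlap on either day. KO was 2.93-fold higher at D8 (log2 1.55, SE 0.21, limma adjusted p = 0.0107) and 3.21-fold higher at D15 (log2 1.68, SE 0.21, limma adjusted p = 8.81e-04). Klf5 read 801 and 1026 in WT against 1341 and 1249 in KO at D8, and 461 and 666 in WT against 1102 and 1062 in KO at D15. Its groups were also apart on both days, with log2 differences of 0.51 (SE 0.16, limma adjusted p = 0.173) at D8 and 0.96 (SE 0.16, limma adjusted p = 0.00327) at D15. Klf4 read 217 and 662 in WT against 600 and 509 in KO at D8, and 283 and 819 in WT against 530 and 556 in KO at D15. The WT arrays bracketed the KO arrays on both days. The log2 differences of Klf4 were 0.54 (SE 0.54, limma adjusted p = 0.715) and 0.17 (SE 0.54, limma adjusted p = 0.889), and its sign turned with WT replicate 1 left out, to -0.26 at D8 and -0.59 at D15.

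All 3 nuclear receptors were higher in KO at D15, Esrrb and Nr0b1 by the most. Esrrb read 145 and 146 in WT against 340 and 307 in KO at D8, and 33.0 and 61.6 in WT against 256 and 221 in KO at D15. No WT array reached a KO array on either day. The log2 difference was 1.15 (SE 0.22, limma adjusted p = 0.0387) at D8 and 2.40 (SE 0.22, limma adjusted p = 1.78e-04), or 5.28-fold, at D15. Nr0b1 read 62.6 and 83.1 in WT against 211 and 177 in KO at D8, and 12.1 and 30.7 in WT against 117 and 97.4 in KO at D15. Its groups were apart on both days, by a log2 of 1.42 (SE 0.34, limma adjusted p = 0.0898) at D8 and 2.47 (SE 0.34, limma adjusted p = 0.00181) at D15. Nr5a2, which binds the Pou5f1 promoter and can stand in for Pou5f1 in reprogramming, read 125 and 107 in WT against 186 and 145 in KO at D8, and 61.4 and 74.4 in WT against 122 and 130 in KO at D15. This was a smaller gap without overlap, with log2 differences of 0.50 (SE 0.15, limma adjusted p = 0.158) at D8 and 0.90 (SE 0.15, limma adjusted p = 0.00351) at D15.

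Of the other factors, Zfp42 and Prdm14 passed at D15 and Tfcp2l1 and Tbx3 did not. Zfp42 read 80.1 and 97.6 in WT against 145 and 163 in KO at D8, and 9.56 and 37.1 in WT against 92.6 and 113 in KO at D15. The groups did not overlap, and the log2 difference was 0.80 (SE 0.48, limma adjusted p = 0.517) at D8 and 2.44 (SE 0.48, limma adjusted p = 0.0119) at D15. Prdm14 read 45.5 and 58.0 in WT against 132 and 134 in KO at D8, and 19.8 and 41.1 in WT against 89.3 and 73.1 in KO at D15. Its log2 difference was 1.37 (SE 0.34, limma adjusted p = 0.0994) at D8 and 1.50 (SE 0.34, limma adjusted p = 0.0183) at D15, with no overlap. Tfcp2l1, a CP2-family factor induced by LIF through Stat3, read 132 and 213 in WT against 383 and 367 in KO at D8, and 158 and 292 in WT against 285 and 373 in KO at D15. The groups were apart at D8 (log2 1.16, SE 0.29, limma adjusted p = 0.0963) and overlapped at D15 (log2 0.60, SE 0.29, limma adjusted p = 0.219). Tbx3 read 500 and 313 in WT against 388 and 324 in KO at D8, and 115 and 209 in WT against 216 and 222 in KO at D15. Its log2 difference was -0.16 (SE 0.39, limma adjusted p = 0.906) with overlap at D8 and 0.50 (SE 0.39, limma adjusted p = 0.487) without overlap at D15.

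The calls depended on the arrays in the fit. With only the 4 arrays of the day fitted, 0 members passed at D8 and 5 at D15. The study's methods name a t-test in general, but for the arrays only a 1.8-fold cut-off. With a t-test between the 2 groups on log2 intensity, 0 members passed on either day after adjustment. Left-out arrays took their count from 2 to 0 (either KO array of D8), to 1 (WT replicate 2 of D8, any D0 array or either KO array of D15) or to 6 (either WT array of D15). At D15 the count stayed between 5 and 8, but without WT replicate 1 the log2 difference of Zfp42 was 1.46 and that of Prdm14 was 0.98. WT replicate 2 was above WT replicate 1 at D15 for all 10 members, against 50.9% of all genes, and on the WT replicate 1 array Zfp42, Nr0b1 and Prdm14 lay below the lower quartile of all probe sets, 20.2. With an offset of 32 added to every intensity the 7 calls remained, at a log2 of 1.33 for Zfp42, 1.40 for Nr0b1 and 0.88 for Prdm14.

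**Figure D3:**
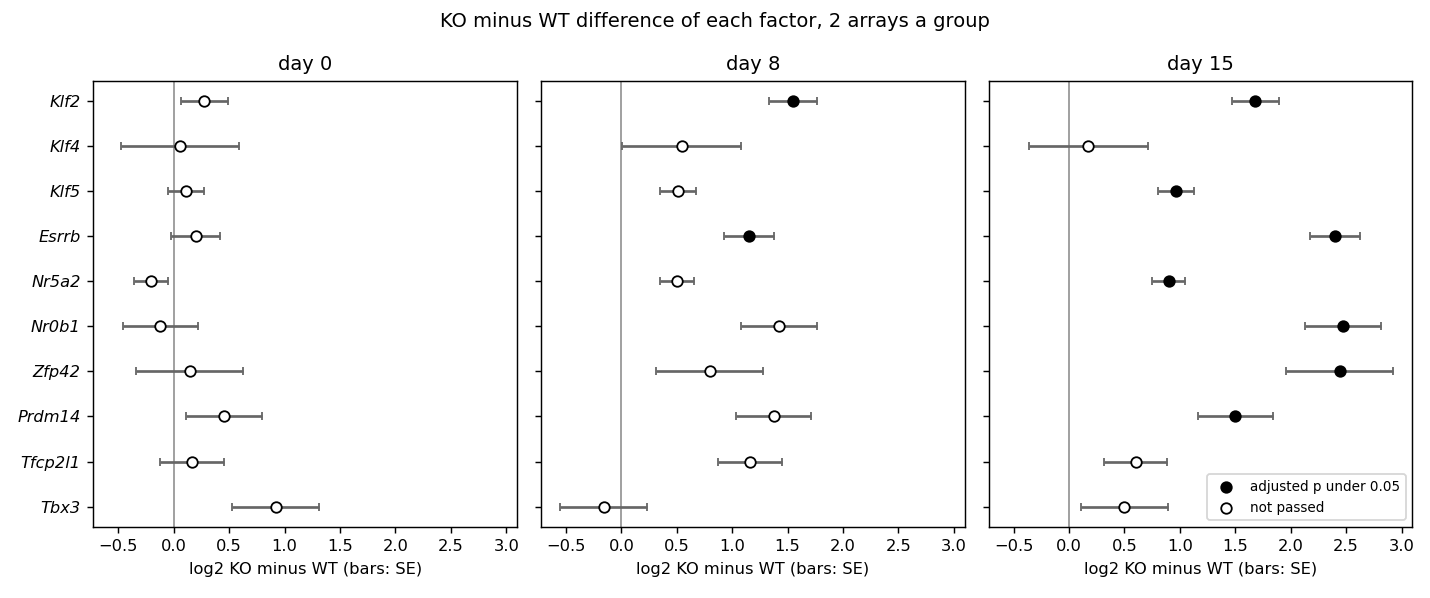
Log2 difference of KO from WT for each factor at days 0, 8 and 15, with bars of 1 standard error from the limma fit over 12 arrays (2 a group); filled points have an adjusted p under 0.05. No point is filled at day 0, 2 are at day 8 and 7 at day 15, all on the side of higher levels in KO.

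The probe sets of a gene did not move alike. Klf2, Zfp42, Nr0b1 and Prdm14 each have 1 probe set, and the others have 2 to 5. Each call at D8 and D15 was made on the brightest probe set and on no other of the same gene. For Esrrb the other probe sets gave log2 differences at D15 of 0.35 (limma adjusted p = 0.125) and 0.20 (limma adjusted p = 0.345), against 2.40 on the brightest. For Nr5a2 the other 3 gave 0.12 to 0.38, the 0.38 (limma adjusted p = 0.304) being that of the probe set brightest at D0, and for Klf5 the other 2 gave 0.37 and -0.02. Read as the mean over all its probe sets, each of the 3 genes was still higher in KO at D15, with smaller log2 differences of 0.99 for Esrrb, 0.40 for Nr5a2 and 0.44 for Klf5. The 4 dimmer probe sets of Tbx3 gave -0.46 to 0.00.

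**Figure D4:**
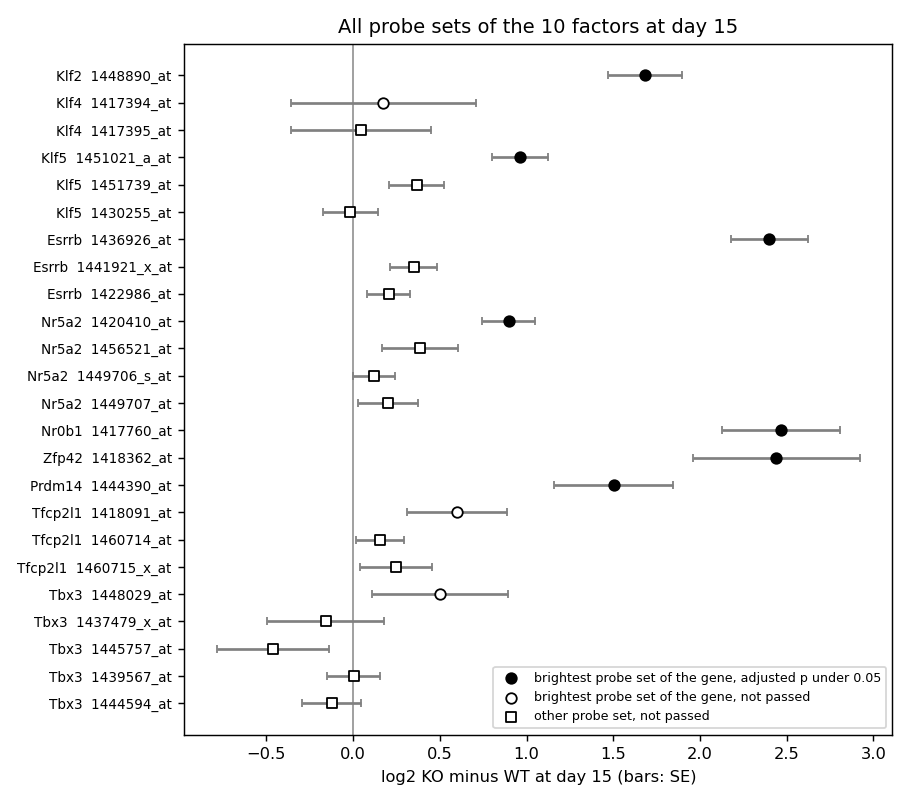
Log2 difference of KO from WT at day 15 for all 24 probe sets of the 10 factors, with bars of 1 standard error; circles are the brightest probe set of a gene, squares the others, and filled symbols have an adjusted p under 0.05. The 7 filled symbols are all circles, and the 14 squares lie between -0.46 and 0.38.

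From D8 to D15 the naive factors went on falling in WT. In all, 7 members were lower at D15 with limma (11.3% of all genes) and 0 higher (9.66%), namely Zfp42, Nr0b1, Esrrb, Tbx3, Klf2, Nr5a2 and Klf5. Both D15 arrays lay below both D8 arrays for 8 members (26.6%), Prdm14 being the other. Zfp42 fell by 2.23 on the log2 scale (SE 0.48, limma adjusted p = 0.0144), Nr0b1 fell by 1.90 (SE 0.34, limma adjusted p = 0.00496) and Esrrb fell by 1.69 (SE 0.22, limma adjusted p = 8.49e-04). Tbx3 fell by 1.35 (SE 0.39, limma adjusted p = 0.0453), a call that did not hold under a number of settings, quantile normalization among them. Klf2, Nr5a2 and Klf5 fell by 0.81, 0.78 and 0.71. Esrrb, Tbx3, Nr5a2 and Klf5 have further probe sets, and none of these passed. Their log2 changes were -0.27 and -0.06 for Esrrb and -0.21 to -0.03 for Nr5a2. For Klf5 they were 0.01 and 0.12, and for Tbx3 they ran from -1.03 to 0.12. With the probe sets of each gene averaged, 4 members were called lower. On the brightest probe set, Klf4 and Tfcp2l1 were the 2 members with changes above 0, at 0.34 and 0.36, and neither passed. With 1 array left out their changes reached -0.46 and -0.084, and Tfcp2l1 was at -0.0078 over all its probe sets. Fitted on the 4 WT arrays of D8 and D15 alone, 0 members passed. The count was 4 without either WT array of D8 and 3 without WT replicate 1 of D15, where the log2 changes of Zfp42 and Nr0b1 were -1.25 and -1.23.

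In KO none of the 10 passed between D8 and D15, lower (0% of all genes) or higher (0.0275%), although all 10 differences were below 0. They ran from -0.86 for Nr0b1 to -0.03 for Klf4, with a median of -0.51. At an unadjusted p 3 were lower (5.64% of all genes), and both D15 arrays lay below both D8 arrays for 8 (26.6%). Fitted on the 4 KO arrays of D8 and D15 alone, 4 passed as lower: Klf2, Tbx3, Nr0b1 and Prdm14. The order of the 4 later groups by mean intensity was the same for 7 members, Klf2, Klf5, Esrrb, Nr5a2, Nr0b1, Zfp42 and Prdm14: KO at D8 highest, then KO at D15, WT at D8 and WT at D15. KO at D15 and WT at D8 were the neighbours closest to each other for Zfp42, with arrays at 92.6 and 113 against 80.1 and 97.6 that overlapped. The same neighbours overlapped for Nr5a2 as well, and for the other 5 all 4 groups were separate. The shares of all genes with this order or this separation were not counted. The 7 members with this order are those called higher in KO at D15, and that call sets part of the order.

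**Figure D5:**
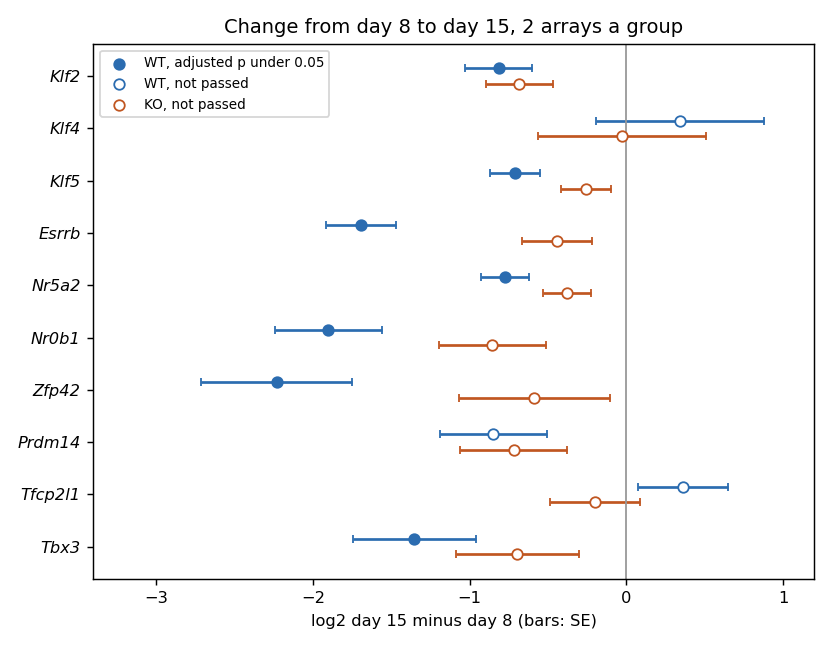
Log2 change from day 8 to day 15 for each factor in WT (blue) and KO (orange), with bars of 1 standard error from the limma fit (2 arrays a group); filled points have an adjusted p under 0.05. All 7 filled points are WT and lie below 0, and no KO point is filled although all 10 lie below 0.

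Whether the genotypes changed by different amounts was tested directly. For the change from D8 to D15 no member passed (0.225% of all genes higher), with Esrrb (log2 1.25, SE 0.32, limma adjusted p = 0.141) and Zfp42 (log2 1.64, SE 0.68, limma adjusted p = 0.382) at an unadjusted p under the threshold (7.66%). So the steeper WT fall is not shown for any member by this test, and 3 members, Esrrb, Zfp42 and Nr0b1, passed without WT replicate 2 of D15. For the change from D0 to D8 none passed (0% of all genes), with 5 at an unadjusted p (3.99%). For the change from D0 to D15, 4 members had fallen less in KO (2.55%): Nr0b1 by a log2 of 2.59 (SE 0.48, limma adjusted p = 0.019), Esrrb by 2.20 (SE 0.32, limma adjusted p = 0.00568), Klf2 by 1.41 (SE 0.30, limma adjusted p = 0.0285) and Nr5a2 by 1.10 (SE 0.22, limma adjusted p = 0.0189). The call of Nr5a2 rests on 1 probe set, since the one brightest at D0 gave 0.05 (limma adjusted p = 0.956) and the mean over its probe sets 0.32 (limma adjusted p = 0.268). For Esrrb, too, only the brightest probe set passed, and the others gave 0.17 (limma adjusted p = 0.698) and 0.31 (limma adjusted p = 0.378). A constant scale shared by all 4 D0 arrays cancels from this difference, but a shift that varies with intensity need not. The D0 arrays differed by more than a constant. Their lower quartiles were 54.4 to 56.3 against 19.1 to 20.7 on the later arrays, and their upper quartiles 338 to 343 against 190 to 207. Zfp42 gave 2.30 (SE 0.68, limma adjusted p = 0.1). This count was 1 without either WT array of D0, KO line A49 or KO replicate 1 of D15, 2 without KO replicate 2 of D15, and 7 without WT replicate 2 of D15.

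The rest of the pluripotency network was described by lists beside the members, with no list test. The counts stand beside 8.77% of all genes higher in KO at D15 and 8.31% lower. The core factors Pou5f1, Nanog, Sox2 and Sall4 were all higher in KO at D15, 4 of 4, with a median log2 difference of 2.75. Pou5f1, which naive and primed cells share, read 108 and 281 in WT against 2259 and 1909 in KO (log2 3.58, limma adjusted p = 8.95e-04). Of 20 other naive-state genes measured, 17 were higher and 0 lower, with a median of 1.68. The lists overlap, since Nanog is counted in this one and among the core factors, and Dppa3, Dppa5a and Mael in this one and among the germ cell genes. Fgf4, the Fgf that drives cells out of the naive state, read 22.8 and 108 in WT against 480 and 464 in KO. Of 11 genes of the LIF and Stat3 pathway, 2 were higher (Pim1 and Junb) and 2 lower (the receptor subunits Lifr and Il6st), so the pathway that maintains naive cells did not move in a single direction. Lifr read 720 and 716 in WT against 403 and 479 in KO.

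Genes of the states that follow the naive one were higher in KO too. Of 14 genes of the primed and formative epiblast, 10 were higher (8.77% of all genes) and 1 lower (8.31%) at D15. Their median was 2.35, above the members' own 1.23. Fgf5, the classical marker of primed epiblast, was at the 7.32nd percentile in WT at D0 and read 42.6 and 41.3 in WT against 1269 and 867 in KO at D15 (log2 4.64, limma adjusted p = 0.00147). Pou3f1 was higher at D8 (log2 1.39, limma adjusted p = 0.0437) and D15 (log2 3.53). Of 14 genes linked to exit from the naive state, 5 were higher, among them the Fgf and Erk targets Etv4, Etv5 and Spry2. In that list 1 gene, Tcf7l1, was lower, a count near the 8.31% of all genes. Tcf7l1, which represses Esrrb and other members, read 1236 and 949 in WT against 518 and 561 in KO (log2 -1.01, limma adjusted p = 0.0101). Its part in the members' levels was not tested.

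Lists of cell types that use a member outside pluripotent cells were set beside its values, and their part in the members' differences was not tested. Over all genes, 8.77% were higher in KO at D15 and 8.31% lower. For Klf4 and Klf5, 3 of 8 simple epithelium genes were higher in KO at D15 and 0 lower, with a summed level of 12420 and 20606 in WT and of 28837 and 29715 in KO. For Klf2, 6 of 10 endothelial genes were lower in KO and 0 higher, summing to 2512 and 2874 in WT and 2197 and 2071 in KO. For Nr5a2, 6 of 15 endoderm genes were lower and 1 higher, summing to 18816 and 37259 in WT and 10483 and 8674 in KO. For Nr0b1, 1 of 6 genes of adrenal and gonad was lower, beside 8.31% of all genes, and 0 higher, and the median log2 difference of the list was 0.11, so it had no clear direction. The median was -1.05 for endothelium and -1.25 for endoderm. For Zfp42 and Prdm14, which germ cells also use, 7 of 11 germ cell genes were higher and 0 lower, 2583 and 7081 in WT and 11205 and 11518 in KO, with Ddx4 at a log2 of 1.97 (limma adjusted p = 7.89e-04). Of the further lists, fibroblast genes were lower for 10 of 16 and blood genes for 5 of 8. Trophoblast genes were higher for 3 and lower for 1 of 9, and muscle and neural progenitor genes were higher for 1 of 10 and 3 of 9. The muscle count was near the share over all genes.

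Over the 8 later arrays, 7 of the 10 members had an r of 0.930 or higher with the mean profile of the members. These 7 are those called higher in KO at D15, and the share of all genes with such an r was not counted. The correlation of each with the mean of the members was 0.987 for Klf5 and Nr0b1, 0.983 for Prdm14, 0.967 for Klf2, 0.966 for Esrrb, 0.963 for Zfp42 and 0.930 for Nr5a2, against 0.736 for Tfcp2l1, 0.652 for Tbx3 and 0.468 for Klf4. The arrays share genotype and day, the mean holds the member itself, and the values are descriptive. Of genes outside the set, those most like the mean were AU018091 (r = 0.996), Fgf4 (0.987), Dhx16, Trim13, Pdcd2, Slc9a3r1, Nt5c2 and Dppa2 (0.979). Slc9a3r1 and Nt5c2 were not called at D15 (limma adjusted p = 0.141 and 0.120). Slc9a3r1 did not share the fall from D0, since over all 12 arrays after quantile normalization its r was -0.791.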

How the data were processed

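Expression in 12 samples (2 per genotype and day) was measured on Affymetrix mouse arrays. The authors deposited linear intensity values per probe set, and the submitters' processing notes name MAS5. Detection calls were not analysed here. Of 45101 probe sets, 64 controls were left out. The annotation gave 1 symbol for 34945 of the 45037 tested, several for 932 and none for 9160, and 18193 genes were read from their brightest probe set (highest mean log2 intensity over the 12 arrays). Intensities were floored at 1, log2 transformed and fitted with limma 3.58.1 (1 mean per group, all 12 arrays, trended and robust moderation), with Benjamini-Hochberg adjustment over all tested probe sets and a threshold of 0.05. Replicates are described as biological, but with 2 arrays a group the precision is limited. On data simulated for KO against WT at day 15 (45037 probe sets), the fit found 67.2% of 1.8-fold and 84.8% of 2-fold changes. The median number of false calls was 10. The simulated noise was independent between probe sets, and changes were placed in the brighter probe sets only. Shifts shared by many genes of an array were not simulated, so these shares need not hold for the real arrays. All 10 members and up to 4 genes of each other list by size of the day 15 difference are named. The members, lists and tests were chosen with earlier results of these data known. Percentiles are ranks among the tested probe sets of an array. Alternatives covered the offset, normalization, probe set filter, moderation, gene reading, arrays fitted and replicate block. They also covered each left-out array, the 1.8-fold rule and a 2-group t-test. The study's methods name a t-test in general and none for the arrays.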

Additional observations from a re-analysis of the deposited data

Results flagged for a closer look

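Members whose change from day 0 to day 15 differed between the genotypes by the interaction test, all by falling less in KO, were Nr0b1 (log2 difference of the changes 2.59, limma adjusted p = 0.019), Esrrb (2.20, limma adjusted p = 0.00568), Klf2 (1.41, limma adjusted p = 0.0285) and Nr5a2 (1.10, limma adjusted p = 0.0189). Each had a group order of KO above WT on both arrays at day 15. At day 0, Nr0b1 and Nr5a2 were lower in KO than in WT on both arrays and Klf2 and Esrrb higher, with no call, and for Nr5a2 this held on its brightest probe set by mean log2 intensity but not on the one brightest at day 0, where KO was higher on both. For Nr5a2 the mean over all 4 probe sets gave 0.32 (limma adjusted p = 0.268). The dimmer probe sets of Esrrb gave 0.17 (limma adjusted p = 0.698) and 0.31 (limma adjusted p = 0.378), so its call was made on the brightest only. No group held enough arrays for a check on single far-off samples.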

How the results depend on the processing

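With 2 arrays a group, few degrees of freedom stand behind each call, dim WT readings at day 15 limit the size of the folds, and day 0 is linked to later days only by rank or interaction. Of the tests of single members under the alternatives, 1160 kept their direction and side of the threshold, 34 gained a call, 95 lost one and 14 turned sign without being called. Fitted on only the arrays compared, the members called were 0 at day 8, 5 at day 15, 0 for WT day 15 against day 8 and 4 for KO day 15 against day 8. The mean over all probe sets gave 1 at day 8 and 4 for WT from day 8 to 15. The 2-group t-test gave 0 at days 8 and 15 and 0 for WT day 15 against day 8 after adjustment. Unadjusted, it gave 3 at day 0 (2 higher, 1 lower), 5 at day 8, 2 at day 15, 1 for WT and 5 for KO between days 8 and 15. The 1.8-fold rule gave 1 at day 0, 5 at day 8, 7 at day 15, and 4 for WT and 1 for KO between days 8 and 15.

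Leaving out 1 array at a time gave 0 to 6 calls at day 8, 5 to 8 at day 15, 3 to 8 for WT day 15 against day 8, 0 to 3 for the interaction from day 8 to 15, 1 to 7 for that from day 0 to 15, and 0 for the other 3 comparisons. Signs of uncalled members turned at these ranges: Klf4 from -0.26 to 1.35 at day 8, -0.59 to 0.94 at day 15, -0.46 to 1.15 in WT and -0.14 to 0.094 in KO between days 8 and 15, Tbx3 from -0.50 to 0.18 at day 8, and Tfcp2l1 from -0.084 to 0.80 in WT. Klf4 in KO between days 8 and 15 was 0.0062 after quantile normalization and 0.053 over all probe sets. Over all probe sets, Tfcp2l1 was -0.091 and Nr5a2 0.083 at day 0, Tbx3 was -0.048 at day 15, and Tfcp2l1 was -0.0078 in WT between days 8 and 15. The cause was not tested.

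Replicate numbers did not pair the samples, since deviations of like-numbered arrays correlated at -0.061 to 0.053 over all probe sets. With the replicate block, 3 members were called at day 8, 7 at day 15, 6 for WT day 15 against day 8 and 4 for the interaction from day 0 to 15.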
